A study of Mus musculus with 6 samples.

Results

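Autophagy delivers cytoplasm and whole organelles to the lysosome. Here 42 genes of this pathway, among them the ER-phagy receptor gene *Fam134b*, were compared between *Nhe6*-knockout and wildtype cultures labelled as endothelial cells. The members were named by gene symbol from the known machinery of autophagy, and they are 42 of 24421 genes in the deposited table. All 42 had enough reads to be tested. *Fam134b* is called *Retreg1* in newer annotations.

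In autophagy a double membrane grows around its cargo and closes into an autophagosome, which then fuses with the lysosome. A kinase complex starts the process, a lipid kinase complex marks the membrane, and a conjugation system attaches small ATG8 proteins (the LC3 and GABARAP families) to it. Receptors bind cargo on one side and ATG8 proteins on the other. In ER-phagy the cargo is a piece of endoplasmic reticulum (ER), and receptors in the ER membrane such as FAM134B, CCPG1, RTN3 and SEC62 select it.

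RNA was sequenced from 6 cultures, 3 of each genotype, with 1 library per culture. The cells, labelled as primary endothelial cells, were grown from the lateral wall of the cochlea of untreated mice on postnatal days 10 to 12. The study names the stria vascularis, the tissue there that keeps the ion balance of the inner ear fluid. Its methods took out the stria together with the spiral ligament. *Nhe6*-knockout animals carried a targeted gene disruption. The labels give C57BL/6N as the background of both groups, whereas the study's methods give a backcross into C57bl6/j. Each culture pooled cells of several mice, and cells were purified by fluorescence-activated sorting and grown on, so the RNA came from cultured cells and not from fresh capillaries. The sources used here do not tie a replicate number to a litter or day. The p-values set the genotype difference against the spread between these cultures, with the 3 of each genotype taken as independent.

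The libraries held 25587097 to 29126232 reads on genes. Wildtype replicate 2 stood apart on the first principal component, at 106 against -28.5 to -6.52 in the other libraries. The endothelial label was only partly borne out by its markers. Of 10 endothelial marker genes, 5 had enough reads to be tested. *Pecam1*, *Tie1* and *Cldn5*, 3 of the others, stayed under 10 reads in every library, *Cldn5* with no read. *Vwf* had 5.68 to 23.24 normalized counts in *Nhe6*-knockout and 0 to 3.912 in wildtype cultures. *Emcn* had 9900 to 18393 normalized counts outside wildtype replicate 2, which had 409.7. *Cdh5*, the cadherin of endothelial junctions, was 17.7-fold lower in *Nhe6*-knockout cells (log2 fold change -4.15, adjusted p = 0.0133). The tested endothelial markers did not share this direction, with 2 below 0 (*Cdh5* and *Kdr* at -0.42) and 3 above. Those above were *Emcn* at 0.68, *Tek* at 0.67 and *Egfl7* at 0.09, and the median was 0.09. The 7 fibroblast markers summed to 169595 to 280629 normalized counts, far above the 6844 to 19675 of the endothelial markers. *Col1a2* alone gave 87347 to 186310 of the fibroblast counts. Of the fibroblast markers 6 lay above 0. Without overlap 3 (*Dcn* at 1.00 on the log2 scale, *Col3a1* at 0.23 and *Postn* at 0.89) were higher in *Nhe6*-knockout cultures, beside 10.3% of all genes. The fibroblast marker below 0, *Col1a1*, was at -3.35, with 27187 normalized counts in wildtype replicate 2 and at most 1228 elsewhere. Of 7 mural cell markers 5 lay above 0, with a median of 1.04. Again without overlap, 4 (*Pdgfrb*, *Rgs5*, *Des* and *Notch3*) were higher, beside the same 10.3% of all genes. The mural markers below 0 were *Acta2* (-3.14) and *Cspg4* (-1.27). *Acta2* had 16275 normalized counts in wildtype replicate 2 and at most 1204 elsewhere, and *Cspg4* had 4410 there and at most 782.6 elsewhere. The 6 melanocyte markers summed to 707.3 in wildtype replicate 3 and at most 110.6 elsewhere. The 10 cell cycle genes summed to 6747 to 12174 in *Nhe6*-knockout and 2119 to 3282 in wildtype cultures. In bulk RNA, fewer cells of a type and less RNA per cell cannot be told apart, and the part of these differences in the results was not tested.

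The sequences at the starts of the ER-phagy receptor genes are shown first, because these 4 genes had the lowest log2 fold changes of all members. RefSeq promoter windows (build GRCm38.p6, 250 bases before and 50 after an annotated start) were found for 35 of the 42 members, with 42 windows in all. No window was found for *Rb1cc1*, *Becn1*, *Pik3c3*, *Atg12*, *Atg16l1*, *Map1lc3a* and *Bnip3l*. Each window was searched on both strands for CACGTG, the E-box core, and for GTCACGTG, a longer form that contains it and resembles the element bound by TFEB and its relatives, which switch on lysosomal and autophagy genes. Window 1 of *Fam134b* (chr15:25843048-25843347, + strand) lies at the gene's most upstream start. Window 4 (chr15:25942429-25942728, + strand) belongs to a start within the gene. The windows of *Ccpg1* (chr9:72985254-72985553, + strand), *Rtn3* (chr19:7483242-7483541, - strand) and *Sec62* (chr3:30792626-30792925, + strand) follow. Capitals mark the longer form where it occurs.
Fam134b, start 1: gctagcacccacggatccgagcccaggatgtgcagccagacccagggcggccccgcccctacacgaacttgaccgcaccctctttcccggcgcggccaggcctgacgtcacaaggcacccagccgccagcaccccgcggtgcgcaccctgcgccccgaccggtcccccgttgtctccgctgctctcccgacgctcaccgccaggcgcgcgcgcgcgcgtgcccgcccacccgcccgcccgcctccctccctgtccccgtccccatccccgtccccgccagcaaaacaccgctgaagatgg
Fam134b, start 4: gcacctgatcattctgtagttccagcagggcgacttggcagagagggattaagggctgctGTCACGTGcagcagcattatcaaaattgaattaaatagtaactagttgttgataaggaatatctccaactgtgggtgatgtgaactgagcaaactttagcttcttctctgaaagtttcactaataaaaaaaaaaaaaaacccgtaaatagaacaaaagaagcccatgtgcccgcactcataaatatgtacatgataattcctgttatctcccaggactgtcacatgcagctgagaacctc
Ccpg1: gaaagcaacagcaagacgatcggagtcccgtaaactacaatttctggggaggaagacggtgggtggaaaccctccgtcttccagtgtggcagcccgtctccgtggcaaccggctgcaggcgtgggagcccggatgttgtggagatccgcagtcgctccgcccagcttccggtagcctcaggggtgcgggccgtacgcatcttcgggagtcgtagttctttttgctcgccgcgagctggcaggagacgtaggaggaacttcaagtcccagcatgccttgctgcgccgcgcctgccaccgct
Rtn3: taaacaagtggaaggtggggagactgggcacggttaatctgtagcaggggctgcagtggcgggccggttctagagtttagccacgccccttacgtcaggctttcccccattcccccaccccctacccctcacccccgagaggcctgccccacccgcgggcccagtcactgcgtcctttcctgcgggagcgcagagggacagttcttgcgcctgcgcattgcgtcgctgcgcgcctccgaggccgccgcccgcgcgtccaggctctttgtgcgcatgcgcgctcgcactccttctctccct
Sec62: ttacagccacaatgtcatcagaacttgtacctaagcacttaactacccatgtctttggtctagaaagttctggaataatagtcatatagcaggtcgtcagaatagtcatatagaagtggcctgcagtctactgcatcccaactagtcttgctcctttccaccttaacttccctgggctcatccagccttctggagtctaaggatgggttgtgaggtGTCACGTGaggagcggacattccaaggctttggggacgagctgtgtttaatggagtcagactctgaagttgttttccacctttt

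CACGTG occurred in 7 of the 42 member windows (16.7%) and in 7.15% of all 32851 windows. These 7 belonged to *Atg14*, *Atg3*, *Atg5*, *Atg7*, *Fam134b*, *Sec62* and *Bnip3*. The longer form occurred in 5 member windows (11.9%), those of *Atg14*, *Atg3*, *Atg7*, *Fam134b* and *Sec62*, against 2.25% of all windows. In *Fam134b* its core began at position -188 from start 4, and in *Sec62* at position -32. *Fam134b* had 4 windows, and windows 1, 2 and 3 did not hold these letters. Windows 2 and 3, at starts within the gene, are not shown. The windows of *Ccpg1* and *Rtn3* did not hold them either. The matches are a description of sequence. The table counts reads per gene, so it does not tell from which *Fam134b* start they came.

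*Nhe6*-knockout cells had less RNA of all 4 ER-phagy receptor genes, and *Fam134b* differed most. No member passed the adjusted threshold in edgeR's test, and *Fam134b* lay just outside it at an adjusted p of 0.0503. Among all genes tested, 0.0668% (9 of 13479) had an adjusted p under 0.05. Of the 42 members, 33 had a log2 fold change below 0 and 9 above 0, with a median of -0.20 against -0.02 over all genes tested. At an unadjusted p under 0.05, 10 members were lower and 0 were higher, beside 5.71% of all genes that were lower and 6.14% that were higher. In 15 members every *Nhe6*-knockout culture lay below every wildtype culture, and the opposite order occurred in 0 members, beside 9.57% and 10.3% of all genes.

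*Fam134b* (ENSMUSG00000022270, chr15:25843180-25973687, + strand, GRCm38) encodes a receptor that bends ER sheets and binds ATG8 proteins. After scaling to a common library size, *Nhe6*-knockout replicates 1, 2 and 3 had 337.7, 357.8 and 382.5 normalized counts, and wildtype replicates 1, 2 and 3 had 1463, 1738 and 1077. Further triplets of normalized counts are in this order of replicates. The 3 *Nhe6*-knockout cultures lay close together and far below the lowest wildtype culture, replicate 3, and wildtype replicate 2 was the highest. On average *Nhe6*-knockout cells had 359.3 ± 22.39 (SD, n = 3) and wildtype cells 1426 ± 331.7 (SD, n = 3), so the *Nhe6*-knockout level was 25.2% of wildtype, or 3.97-fold lower. The log2 fold change was -1.99 (SE 0.20, 95% interval -2.48 to -1.50, unadjusted p = 4.24e-05). By p it ranked 10th among all genes tested. The two-sided exact permutation test on its 6 values gave p = 0.1, the smallest that 3 cultures against 3 allow. *Fam134b* is shown in the study's heatmap of its most strongly lowered genes, drawn from these same libraries, so its direction is not independent evidence. None of the 75-base stretches of its exons occurs in another annotated gene.

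The adjusted p of *Fam134b* lay on either side of the threshold depending on the libraries and the method, from 1.73e-13 to 0.398 across 13 alternatives, while its log2 fold change stayed between -2.16 and -1.83. It was 0.0151 without wildtype replicate 2, with a log2 fold change of -1.83, and 0.0553 without wildtype replicate 3, with -2.16. It was 0.396 without *Nhe6*-knockout replicate 1 and 0.376 without replicate 2. It was under 0.05 in 4 of the 13 alternatives, among them DESeq2's Wald test at 1.73e-13. *Nhe6*-knockout replicates 1 and 2 were closer to each other (chi-square per degree of freedom 4.91) than any other pair of libraries (90.1 to 398), though not within sampling noise, and were kept as separate cultures. With these 2 libraries summed into 1, a comparison chosen after seeing the data, the adjusted p of *Fam134b* was 0.398 and its log2 fold change -1.97.

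*Ccpg1* (chr9:72985429-73016340, + strand) encodes a receptor of the ER membrane that is induced when unfolded proteins accumulate in the ER and that also binds the initiation complex through FIP200. Normalized counts of *Ccpg1* were 3236, 3101 and 3548 in *Nhe6*-knockout and 5482, 7383 and 5937 in wildtype cultures. The genotypes did not overlap, and wildtype replicate 2 was again the highest. The means of 3295 ± 229.5 (SD, n = 3) and 6267 ± 992.1 (SD, n = 3) gave a log2 fold change of -0.93 (SE 0.15, adjusted p = 0.0952). Its exons overlap those of *Gm44503* on the same strand over 3213 of 7497 bases and those of *Pigb* on the opposite strand over 2170 bases. In all, 52.4% of its 75-base stretches occur in another gene on either strand, so its count is uncertain.

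*Rtn3* (chr19:7425901-7483281, - strand) encodes a reticulon of ER tubules whose long form acts as a receptor, and the gene count joins all its forms. Normalized counts were 5703, 5405 and 6115 in *Nhe6*-knockout and 8519, 10447 and 9654 in wildtype cultures. No *Nhe6*-knockout culture reached the lowest wildtype culture, replicate 1. Averages of 5741 ± 357 (SD, n = 3) and 9540 ± 969.3 (SD, n = 3) gave a log2 fold change of -0.73 (SE 0.14, adjusted p = 0.109).

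*Sec62* (chr3:30792875-30821263, + strand) encodes a component of the protein import channel of the ER and acts as a receptor when the ER returns to its normal size after stress. Normalized counts were 8956, 8384 and 10370 in *Nhe6*-knockout and 12774, 18271 and 15412 in wildtype cultures. The wildtype cultures had the same order as for *Ccpg1* and *Rtn3*, replicate 2 highest and replicate 1 lowest, and the genotypes again did not overlap. Averages of 9237 ± 1022 (SD, n = 3) and 15486 ± 2749 (SD, n = 3) gave a log2 fold change of -0.75 (SE 0.18, adjusted p = 0.185).

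**Figure D1:**
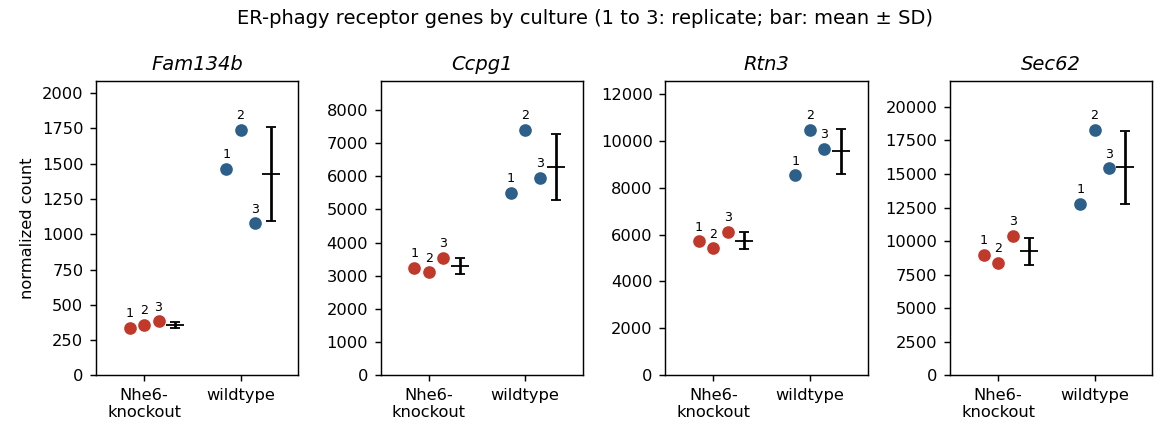
Normalized counts (y axis, linear from 0) of the 4 ER-phagy receptor genes in each culture, numbered by replicate, with the mean and SD over 3 cultures beside the points. In each panel the *Nhe6*-knockout points lie below all wildtype points, for *Fam134b* at 337.7 to 382.5 against 1077 to 1738.

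Summed over the 4 genes, normalized counts were 18233, 17247 and 20416 in *Nhe6*-knockout and 28239, 37839 and 32081 in wildtype cultures. The cell cycle genes, in the same order, summed to 12174, 12011 and 6747 and to 2806, 3282 and 2119. *Nhe6*-knockout replicate 3 thus had the highest receptor sum and the lowest cell cycle sum of its group, whereas wildtype replicate 2 had the highest of both in its own. All 10 cell cycle genes had a log2 fold change above 0, with a median of 2.73. In edgeR's test 9 were higher at an unadjusted p under 0.05, beside 6.14% of all genes, and 0 passed the adjusted threshold. Their part in the receptor difference was not tested. With DESeq2's Wald test all 4 receptor genes had an adjusted p under 0.05 and no other member did, beside 1.83% of 13381 genes that were lower by that test. Without wildtype replicate 2, *Fam134b* and *Ccpg1* (adjusted p = 0.0355, log2 fold change -0.80) passed in edgeR's test, beside 1.26% of 13728 genes that were lower. *Rtn3* then had an adjusted p of 0.058 and *Sec62* one of 0.109. Across the 13 alternatives the adjusted p ranged from 3.62e-05 to 0.473 for *Ccpg1*, from 8.48e-05 to 0.544 for *Rtn3* and from 0.00879 to 0.732 for *Sec62*.

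**Figure D2:**
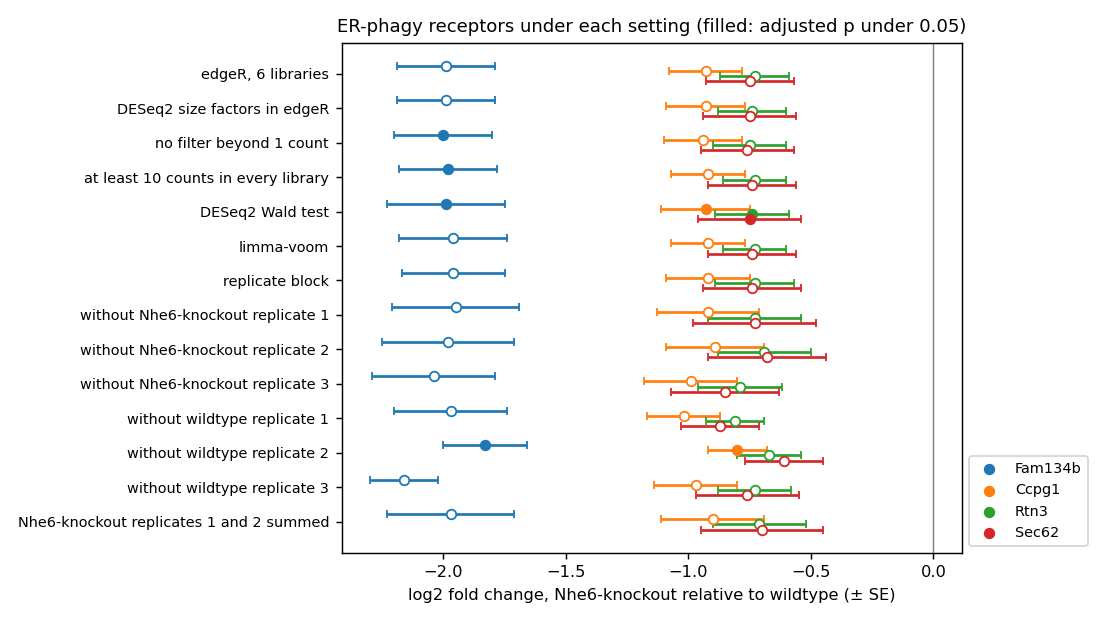
Log2 fold change of *Nhe6*-knockout relative to wildtype (x axis, with SE) of the 4 ER-phagy receptor genes in edgeR's test of 6 libraries and in 13 alternatives (y axis). Filled points have an adjusted p under 0.05. Every point lies below 0, *Fam134b* between -2.16 and -1.83, and the filled points change with the setting.

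The remaining 38 members differed by at most 0.50 in size on the log2 scale, from -0.50 for *Gabarapl1* to 0.45 for *Atg2a*. Of these, 29 lay below 0, with a median of -0.18. For 35 of the 38, the 95% interval of the log2 fold change lay within -1 to 1, so changes of 2-fold were outside it. At an unadjusted p under 0.05, 6 of the 38 were lower (5.71% of all genes), and 11 were lower without overlap between the genotypes (9.57% of all genes).

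**Figure D3:**
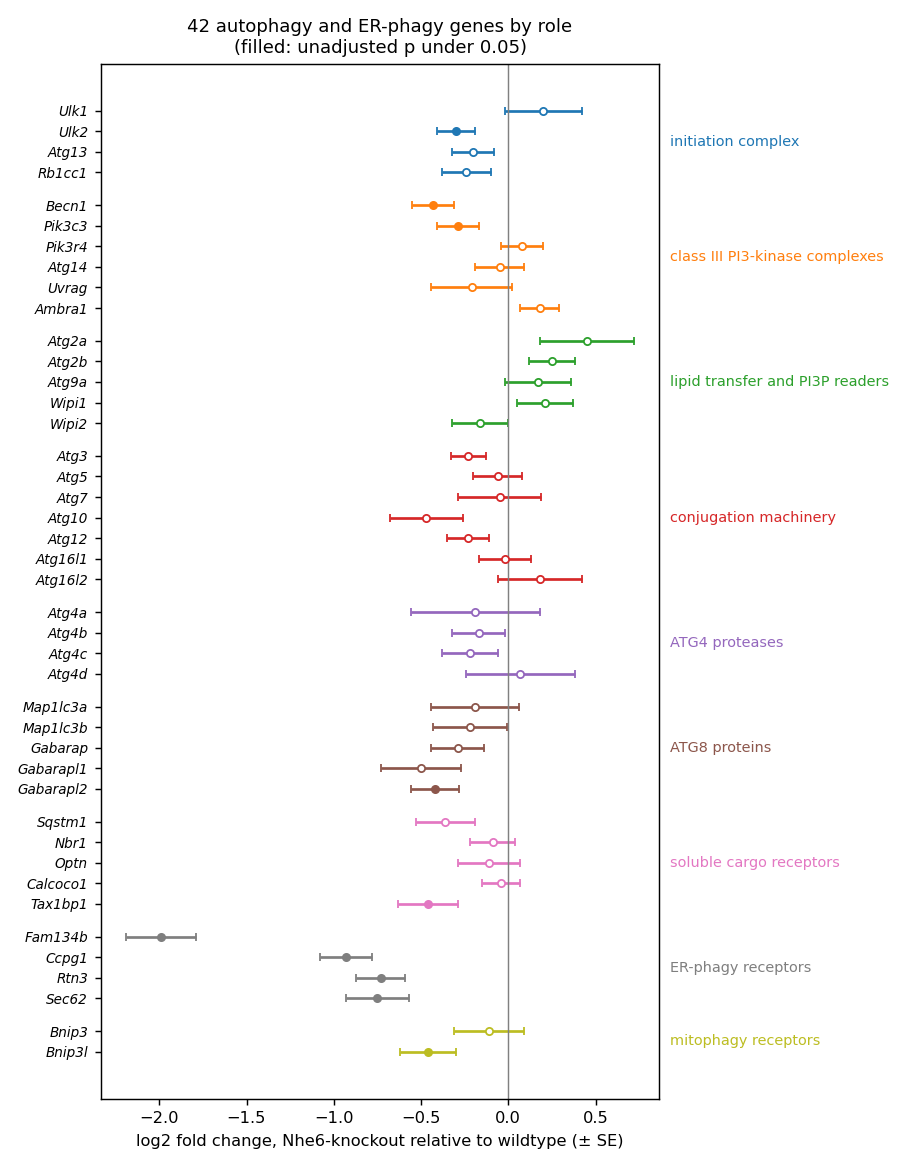
Log2 fold change of *Nhe6*-knockout relative to wildtype (x axis, with SE) for the 42 genes, grouped and coloured by role. Filled points have an unadjusted p under 0.05, and these are 10 genes below 0, of which the 4 ER-phagy receptors lie farthest left.

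Among the 4 genes of the initiation complex, which receives the starvation signal, 3 lay below 0 with a median of -0.22. *Ulk2*, a kinase of the complex, had 2760, 2728 and 2971 normalized counts in *Nhe6*-knockout and 3194, 3621 and 3634 in wildtype cultures. The groups did not overlap, and the log2 fold change was -0.30 (SE 0.11, unadjusted p = 0.0323, adjusted p = 0.366). Its relative *Ulk1* was at 0.20 (SE 0.22) with overlapping groups. The scaffold gene *Rb1cc1*, which encodes FIP200, was at -0.24 (SE 0.14) and *Atg13*, the regulatory subunit, at -0.20 (SE 0.12).

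Of the 6 genes of the class III PI3-kinase complexes, which make the lipid PI3P on the growing membrane, 4 lay below 0 with a median of -0.13. *Becn1*, the regulatory subunit Beclin 1, had 2835, 2857 and 2541 normalized counts in *Nhe6*-knockout and 3894, 3876 and 3304 in wildtype cultures, without overlap. Its log2 fold change was -0.43 (SE 0.12, adjusted p = 0.251), and 3104 of its 7065 exonic bases overlap *Cntd1* on the opposite strand. *Pik3c3*, the lipid kinase itself, had 1623, 1657 and 1385 against 1972, 1921 and 1800 normalized counts. These groups also did not overlap, with a log2 fold change of -0.29 (SE 0.12, adjusted p = 0.421). The other 4 genes, *Pik3r4*, *Atg14*, *Uvrag* and *Ambra1*, lay between -0.21 and 0.18 with overlapping groups.

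The 5 genes of lipid transfer and PI3P reading were the 1 role with a median above 0, at 0.21. *Atg2a* and *Atg2b*, whose proteins carry lipids into the growing membrane, were at 0.45 (SE 0.27, adjusted p = 0.576) and 0.25 (SE 0.13, adjusted p = 0.518). The scramblase gene *Atg9a* was at 0.17, and the PI3P readers *Wipi1* and *Wipi2* were at 0.21 and -0.16. All 5 had overlapping groups.

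The conjugation machinery, which attaches ATG8 proteins to lipid, had a median of -0.06 over 7 genes, of which 6 lay below 0. *Atg3* and *Atg12* did not overlap between the genotypes, with log2 fold changes of -0.23 (unadjusted p = 0.0633) and -0.23 (unadjusted p = 0.0932). *Atg5*, *Atg7* and *Atg16l1* had log2 fold changes from -0.06 to -0.02, the values nearest to 0 in this role. *Atg10* was at -0.47 (SE 0.21, adjusted p = 0.453) and *Atg16l2* at 0.18 (SE 0.24), both with overlapping groups. The 4 ATG4 proteases, which prepare ATG8 proteins and release them again, had a median of -0.18. Of these, *Atg4c* did not overlap, by a narrow gap of 609.7 in *Nhe6*-knockout replicate 3 against 610.9 in wildtype replicate 2. Of the 75-base stretches of *Atg4a*, 41.3% also occur in other genes, among them its pseudogene, so its count is uncertain.

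All 5 ATG8 genes lay below 0, with a median of -0.29. *Gabarapl2* had 371.7, 353.2 and 348.4 normalized counts in *Nhe6*-knockout and 491.9, 483 and 459 in wildtype cultures. Both groups were tight and did not overlap, and the log2 fold change was -0.42 (SE 0.14, unadjusted p = 0.0199, adjusted p = 0.304). Pseudogenes share 9.53% of its 75-base stretches. *Gabarap* had 12219, 11381 and 11668 against 16286, 12794 and 14102 normalized counts, also without overlap (log2 fold change -0.29, adjusted p = 0.505).

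*Gabarapl1* had 5695, 5353 and 4003 normalized counts in *Nhe6*-knockout and 9066, 5502 and 6731 in wildtype cultures. Wildtype replicate 2 lay within the *Nhe6*-knockout range, and the log2 fold change was -0.50 (SE 0.23, adjusted p = 0.466). *1700101I11Rik*, on the opposite strand, shares 20.5% of its 75-base stretches. *Map1lc3a* had 1251, 1385 and 1411 against 2156, 1087 and 1381, where wildtype replicate 1 alone was high and replicate 2 was the lowest of all 6 cultures. *Map1lc3b*, which encodes the common autophagosome marker LC3B, had 4935, 4923 and 4185 against 5905, 6515 and 3965, and its lowest culture was wildtype replicate 3. The log2 fold changes of these genes were -0.19 (SE 0.25) and -0.22 (SE 0.21), within the spread between cultures.

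The soluble cargo receptors bind ubiquitinated or other cargo, and all 5 genes lay below 0 with a median of -0.11. *Tax1bp1*, a receptor for protein aggregates, had 8550, 7880 and 8073 normalized counts in *Nhe6*-knockout and 9417, 13326 and 10873 in wildtype cultures. The groups did not overlap, with replicate 2 the highest wildtype culture and a log2 fold change of -0.46 (SE 0.17, unadjusted p = 0.031, adjusted p = 0.363). *Sqstm1*, which encodes p62, had 13133, 13189 and 11791 against 18828, 16357 and 13788. These groups were apart too, and the log2 fold change was -0.36 (SE 0.17, unadjusted p = 0.0717, adjusted p = 0.466). *Mrnip*, on the opposite strand, shares 14.6% of its 75-base stretches. *Nbr1*, *Optn* and *Calcoco1* were at -0.09, -0.11 and -0.04 with overlapping groups.

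The mitophagy receptor gene *Bnip3l*, which encodes the outer mitochondrial membrane protein NIX, had 3582, 3416 and 4111 normalized counts in *Nhe6*-knockout and 5114, 4339 and 5873 in wildtype cultures. The groups did not overlap, and the log2 fold change was -0.46 (SE 0.16, unadjusted p = 0.0227, adjusted p = 0.322). Its relative *Bnip3* had 1992, 1890 and 1451 against 2346, 1579 and 1845, with overlapping groups and a log2 fold change of -0.11 (SE 0.20, adjusted p = 0.872). Other genes share 16.9% of the 75-base stretches of *Bnip3l* and 34.4% of those of *Bnip3*. Both are known targets of the hypoxia response. Of 12 other hypoxia-response genes, 6 lay below 0 and 6 above, with a median of 0.02. At an unadjusted p under 0.05, 3 were higher (6.14% of all genes) and 0 were lower, with *Ldha* at 0.85, *Vegfa* at 0.97 and *Pgk1* at 0.28 on the log2 scale.

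**Figure D4:**
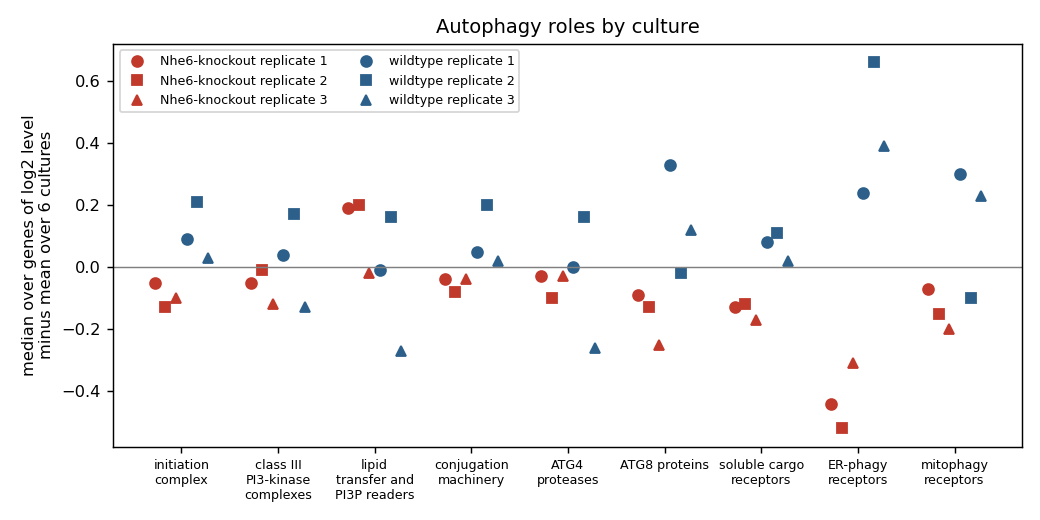
Median over the genes of each role (x axis) of the log2 level minus its mean over the 6 cultures (y axis), with 1 point per culture. The ER-phagy receptors are spread widest, from -0.52 to -0.31 in *Nhe6*-knockout and 0.24 to 0.66 in wildtype cultures. In the lipid transfer role 2 *Nhe6*-knockout cultures, at 0.19 and 0.20, lie above all others.

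Per exon length and library size (RPKM, reads scaled by exon kilobases and by library size), the ATG8 genes differed in level more from each other than between the genotypes. In wildtype cultures *Gabarap* was at 283 ± 34.7 RPKM (SD, n = 3), *Gabarapl1* at 128 ± 32.6, *Map1lc3a* at 47.4 ± 17, *Map1lc3b* at 26.4 ± 6.43 and *Gabarapl2* at 7.46 ± 0.265. The means had the same order in *Nhe6*-knockout cultures, from 231 ± 8.39 for *Gabarap* to 5.58 ± 0.193 for *Gabarapl2*. The closest pair in wildtype cultures, *Map1lc3a* at 33.4 to 66.2 RPKM and *Map1lc3b* at 19.1 to 31.4 RPKM, did not overlap. The order between genes depends on the exon lengths used, which join all annotated exons. These were 1181 bases for *Map1lc3a* and 7517 for *Map1lc3b*. Before division by length *Map1lc3b* had the higher wildtype mean, 5462 against 1541 normalized counts.

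Among the ER-phagy receptors the wildtype order was *Sec62* at 129 ± 23 RPKM, *Rtn3* at 68.9 ± 7, *Ccpg1* at 30.3 ± 4.8 and *Fam134b* at 12.5 ± 2.91 (SD, n = 3). *Fam134b* was thus the lowest of them in wildtype cultures, and it was at 3.15 ± 0.196 RPKM in *Nhe6*-knockout cultures. Its relatives *Fam134a* and *Fam134c* were at 27.7 ± 5.94 and 21 ± 1.79 RPKM in wildtype and at 21.8 ± 0.244 and 18 ± 1.15 RPKM in *Nhe6*-knockout cultures. Their log2 fold changes were -0.35 (SE 0.17, adjusted p = 0.501) and -0.22 (SE 0.12, adjusted p = 0.531).

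**Figure D5:**
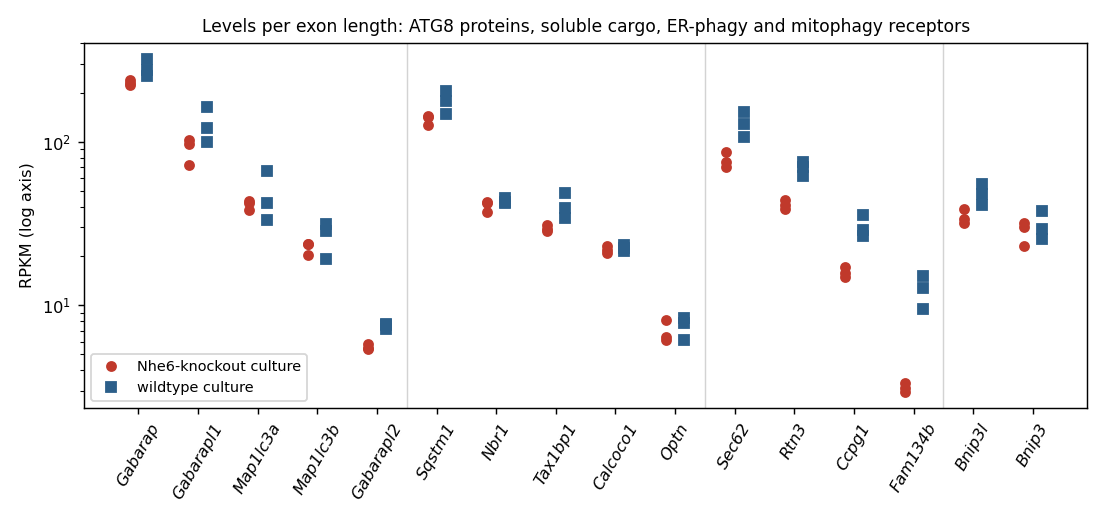
RPKM (log axis) of ATG8, cargo receptor, ER-phagy receptor and mitophagy receptor genes, with 1 point per culture. *Gabarap* and *Sqstm1* lie highest, with wildtype means of 283 and 176, and *Fam134b* in *Nhe6*-knockout cultures, at 3.15, lies lowest.

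Genes of the wider pathway were taken from 4 lists with 64 genes, all tested. Of these, 39 lay below 0 with a median of -0.08, 0 passed the adjusted threshold, and at an unadjusted p under 0.05 6 were lower and 1 was higher, beside 5.71% and 6.14% of all genes. Among 12 further ER-phagy and ER-shaping genes, 10 lay below 0 with a median of -0.28, and 2 were lower at an unadjusted p under 0.05. *Reep5*, which curves ER tubules, had 5867, 5374 and 6376 normalized counts in *Nhe6*-knockout and 8987, 10289 and 8128 in wildtype cultures. The groups did not overlap, and the log2 fold change was -0.64 (SE 0.15, unadjusted p = 0.00415, adjusted p = 0.16). *Atl2*, an atlastin that fuses ER tubules, was at -0.29 (SE 0.10, adjusted p = 0.351). As a comparison chosen after seeing the data, 12 genes of the ER translocon and ER chaperones were listed, and of the 11 tested 0 were lower and 1, *Pdia6* at 0.36, was higher at an unadjusted p under 0.05, with a median of -0.06.

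Among 18 further core and fusion genes the median was -0.15. *Vamp8*, a SNARE of autophagosome fusion, was at -0.43 (SE 0.14, adjusted p = 0.293) and *Wdr45b*, a PI3P reader, at 0.28 (SE 0.10, adjusted p = 0.37). They were the 2 genes of this list with an unadjusted p under 0.05, beside 5.71% of all genes that were lower and 6.14% that were higher. The 24 nutrient-sensing and TFEB genes divided evenly around 0, with 12 below and 12 above. At an unadjusted p under 0.05, 2 were lower and 0 were higher, beside the same shares of all genes. *Prkaa2*, a catalytic subunit of the energy sensor AMPK, had 748.8, 731.4 and 612.5 normalized counts in *Nhe6*-knockout and 1127, 1507 and 1189 in wildtype cultures. The groups did not overlap, and the log2 fold change was -0.87 (SE 0.16, unadjusted p = 0.00152, adjusted p = 0.112). *Rheb*, the activator of mTORC1, was at -0.45 (SE 0.16, adjusted p = 0.343). The transcription factor genes *Tfeb*, *Tfe3* and *Mitf* were at -0.24, 0.16 and 0.10, none with an unadjusted p under 0.05. The 10 further mitophagy genes had a median of 0.04, and 1 was lower at an unadjusted p under 0.05, beside 5.71% of all genes. It was *Pink1*, the kinase that marks damaged mitochondria (log2 fold change -0.43, SE 0.16, adjusted p = 0.387).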

How the data were processed

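Libraries of 3 *Nhe6*-knockout and 3 wildtype cultures were made from poly(A)-enriched RNA with a stranded kit and sequenced with 75 cycles. The authors deposited raw counts of reads per gene symbol, without normalization. The submitters' processing notes name STAR 2.7.7a, HTSeq 0.13.5, DESeq2 1.26.0 and mm10, and the strand setting and annotation used for counting are not given in the sources used here. The 5 summary lines of reads outside genes (21.5 to 23.6% per library) were left out.

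Genes were filtered with filterByExpr (minimum count 10), normalized with TMM and tested between genotypes with edgeR 4.0.16 (quasi-likelihood F test, two-sided, R 4.3.3), with genotype alone in the design, Benjamini-Hochberg adjustment over 13479 genes and a threshold of 0.05. SEs were obtained by dividing the log2 fold change by the root of F. Positions and exon lengths came from GENCODE M21 on GRCm38. The depth of 25587097 to 29126232 reads left no member too low to test.

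The 42 members and the gene lists were chosen with earlier results of these data known. Values in every culture are given for *Fam134b*, for members with an unadjusted p under 0.05, for ATG8 genes, ER-phagy and mitophagy receptors and *Sqstm1*. Genes of other lists are named where their unadjusted p was under 0.05, at most 4 per list, and *Fam134a*, *Fam134c*, *Tfeb*, *Tfe3* and *Mitf* were named after their values were seen, as were marker genes that describe the cultures. Other members are given more briefly.

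The alternatives were DESeq2 size factors in edgeR, keeping every gene with 1 count, keeping genes with 10 counts or more in all libraries, DESeq2 1.42.0 (Wald test), limma-voom (limma 3.58.1), a replicate block and leaving out each culture. Summing *Nhe6*-knockout replicates 1 and 2 and the translocon and chaperone list were chosen after seeing the data. The tests were first tried on simulated counts. The level of the targeted gene is not reported here, and the study's other experiments were not analysed here.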

Additional observations from a re-analysis of the deposited data

How the results depend on the processing

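Each of the 10 members with an unadjusted p under 0.05, and the median of all 42, kept a log2 fold change below 0 under all 13 alternatives. These 10 were picked by p in the same libraries, so their kept direction is not independent evidence. The number of members past the adjusted threshold was 0 in edgeR's test of 6 libraries, 1 with no filter beyond 1 count, 1 with at least 10 counts in every library, 4 with DESeq2's Wald test, and 0 to 2 when 1 culture was left out. Among all genes that number was 9, against 21, 21 and 627 in these 3 alternatives, 2 with the replicate block and 0 to 395 when 1 culture was left out, the highest without wildtype replicate 2. At an unadjusted p under 0.05 there were 10 members, all lower, beside 5.71% of all genes that were lower and 6.14% that were higher. There were 5 to 11 when 1 culture was left out and 5 with *Nhe6*-knockout replicates 1 and 2 summed. Among these, 1 member was higher without *Nhe6*-knockout replicate 3 and 1 without wildtype replicate 2. The share of all genes at this p was not counted under the alternatives. The 64 genes of the pathway lists held 7 at this p (6 lower and 1 higher). There were 3 with the replicate block, 2 with the summed libraries and 2 to 13 when 1 culture was left out. The members' median was -0.20, -0.16 with limma-voom, -0.16 with the replicate block and -0.26 to -0.14 when 1 culture was left out. In edgeR's test of 6 libraries 33 members lay below 0. This number was 27 to 34 when 1 culture was left out, the lowest without wildtype replicate 2.

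The log2 fold change of *Fam134b* was -1.99, and its call changed at -2.00 with no filter, -1.98 with at least 10 counts in every library and -1.99 with DESeq2, with -2.16 to -1.83 when 1 culture was left out. Same-numbered cultures deviated together with correlations of 0.21, -0.19 and 0.11, so the numbers were not taken to pair the cultures. With the replicate block *Fam134b* had an adjusted p of 0.1 and 8 members an unadjusted p under 0.05. Where a cause is not given by the samples or genes left out, it was not tested.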
